A study of Arabidopsis thaliana with 18 samples.

Results

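The UGT genes of Arabidopsis thaliana encode UDP-dependent glycosyltransferases, and they were followed here through darkness and a far-red pulse in leaf blades and petioles. Members were all probe sets assigned to a single gene whose symbol begins with UGT and a digit. This gave 47 genes with 1 probe set each, among 22810 probe sets on the array, and each of the 47 matched a RefSeq locus (assembly TAIR10.1). RefSeq lists 64 genes with such a symbol or synonym, so the members are a part of the family. They leave out 3 probe sets that name a UGT gene and a further gene, and family genes measured under other symbols. The measured genes fall into 11 numbered subgroups, with 9 genes in UGT71, 8 in UGT76, 7 in UGT73, 5 each in UGT84 and UGT85, 4 in UGT72, 3 each in UGT74 and UGT78, and 1 each in UGT80, UGT87 and UGT88.

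All plants were wild-type seedlings raised for 19 days at 22 °C in unbroken white light, in every group alike, and the labels name no accession. White-light plants (WL) stayed in the light for 2 h more, dark plants (D) were kept in darkness for 2 h, and pulsed plants (FRD) received far-red light before 2 h of darkness. Blades and petioles of the 3rd and 4th rosette leaf were extracted apart, with 3 arrays for each of the 6 combinations of tissue and treatment. The series calls the 3 replicates independent and biological, and neither the number of plants in a sample nor the dose of far-red light is given in the sources used here.

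UGT enzymes move a sugar from a UDP-sugar onto a small molecule, which makes it more soluble and usually less active, and often marks it for storage in the vacuole. Their acceptors include flavonoids, the building blocks of lignin, glucosinolate precursors, sterols, foreign compounds, and hormones such as auxin, cytokinin, abscisic acid and salicylic acid. In leaves they shape both the flavonoid glycosides that screen light and the pool of inactive hormone conjugates. Far-red light turns phytochrome to its inactive form, as plant shade does, so the pulse removes active phytochrome at the start of the dark period, whereas without it some remains.

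Each value is a linear ratio to the median of the 3 white-light arrays of the same tissue. The white-light median of each gene is therefore exactly 1 in each tissue. No level can be compared between genes or, under any treatment, between blades and petioles. The labelled tissues could not be checked by marker level for the same reason. Of the marker lists, 1 vascular gene (SWEET11), 1 guard cell gene (FMA) and 1 trichome gene (TRY) had a named probe set and no mesophyll gene did; none of the 3 passed the test in any comparison. Array medians lay between 0.937 and 1.02. The 25S rRNA control stood apart in dark blades, at 0.97 ± 0.20 on the log2 scale (SD, n = 3) against -0.08 ± 0.22 in white-light blades; in petioles it was 0.05 ± 0.26 in D and -0.05 ± 0.10 in WL. Its part in the dark blade results below was not tested.

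Differences are given on the log2 scale with the standard error of a limma fit over all 18 arrays, and a gene is called changed at a Benjamini-Hochberg adjusted p below 0.05 over 22746 probe sets. Replicate spread differed widely among the 47 genes. The residual SD of the log2 ratio ran from 0.08 for UGT76C1, a cytokinin N-glucosyltransferase, to 1.76 for UGT73D1, with a median of 0.52 against 0.33 over all probe sets. It was above 1 in 13 UGT genes (27.7%), against 21.5% of all probe sets. The 13 genes called in at least 1 light comparison had residual SDs of 0.19 to 0.53, whereas the 34 genes called in none reached 1.76, and none with a residual SD above 0.53 was called.

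**Figure D1:**
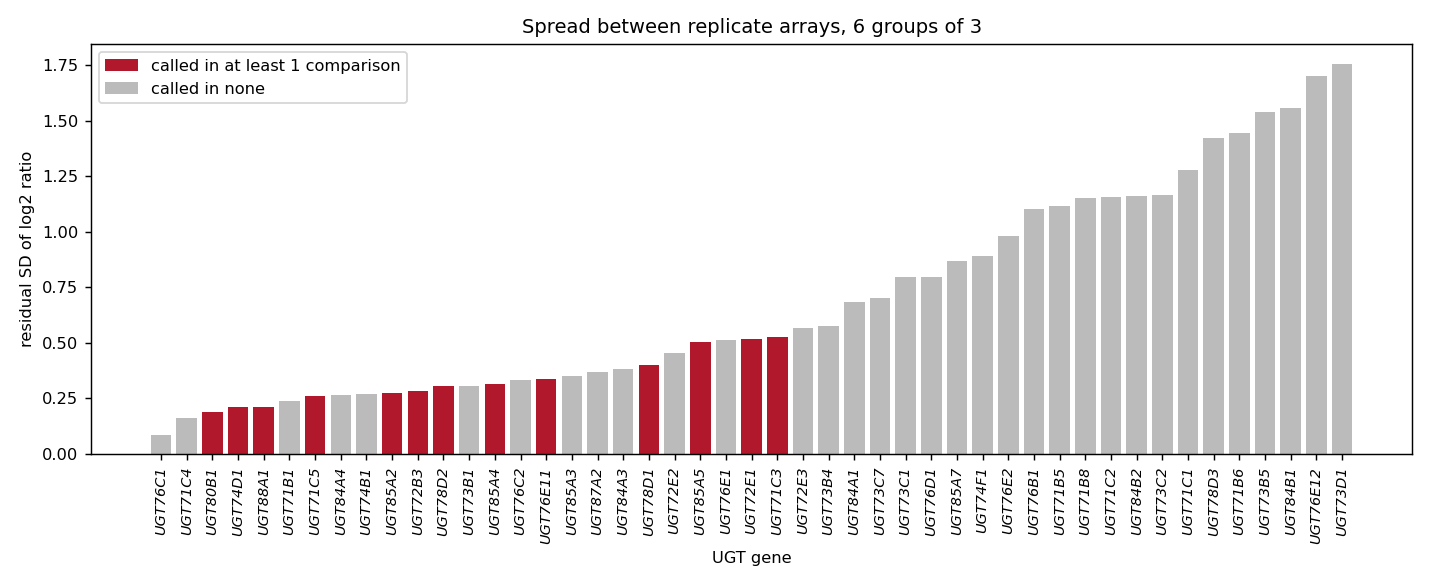
Residual SD of the log2 ratio between replicate arrays for each of the 47 UGT genes, ordered from the quietest to the noisiest; red bars are genes called in at least 1 light comparison and grey bars are the others. The red bars lie between 0.19 and 0.53, and no gene above that range was called.

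Darkness changed 7 UGT genes in blades and 7 in petioles. In blades 5 rose and 2 fell, 14.9% of the family, where 11.2% of all probe sets were called (6.7% higher and 4.47% lower). In petioles 4 rose and 3 fell, again 14.9%, where 5.6% of all probe sets were called (3.45% higher and 2.15% lower). In samples of whole blades or petioles, fewer cells that express a gene and less RNA per cell cannot be told apart. Those that rose encode enzymes of UGT71, UGT72 and UGT85, and those that fell belong to UGT74, UGT76 and UGT78. The median difference of the 47 genes was -0.09 in blades and 0.15 in petioles, against -0.02 and -0.00 over all probe sets. Replicates of D and WL did not overlap for 13 UGT genes in blades (27.7%, and 27.7% of all probe sets) and for 18 in petioles (38.3%, against 26.3%). The blade count was 4 without the first WL, the second D or the third D replicate; the petiole count was 4 without any 1 WL replicate and 3 without the third D replicate. Quantile normalization left 1 call in dark blades and 0 in dark petioles. Over all probe sets it left 0.703% and 0.369% called.

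With the pulse before darkness, 6 UGT genes differed from white light in blades and 9 in petioles. In blades 3 rose and 3 fell (12.8%, against 11.2% of all probe sets, 6.41% higher and 4.74% lower). In petioles 2 rose and 7 fell (19.1%, against 8.31%, with 4.44% higher and 3.87% lower). The median difference was 0.02 in blades and 0.06 in petioles, against -0.03 and 0.00 over all probe sets. Arrays of FRD and WL did not overlap for 14 UGT genes in blades (29.8%, against 28.1%) and 23 in petioles (48.9%, against 26.4%). Quantile normalization left 2 calls in each tissue, and over all probe sets 0.822% in blades and 0.805% in petioles. These shares were not tested against each other, and both dark treatments are set against the same white-light arrays.

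The split between rises and falls shifted when the 75th percentiles of the arrays were aligned. In dark blades 1 gene then rose and 7 fell, and in dark petioles 3 rose and 7 fell. In pulsed blades 3 rose and 10 fell, and in pulsed petioles 1 rose and 12 fell. This setting called 22.1, 12.8, 20.4 and 19.3% of all probe sets, in that order. It subtracts 1 constant from each array, so every gene moved by the same amount within a comparison. The median of all probe sets moved to -0.35, -0.29, -0.33 and -0.31.

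**Figure D2:**
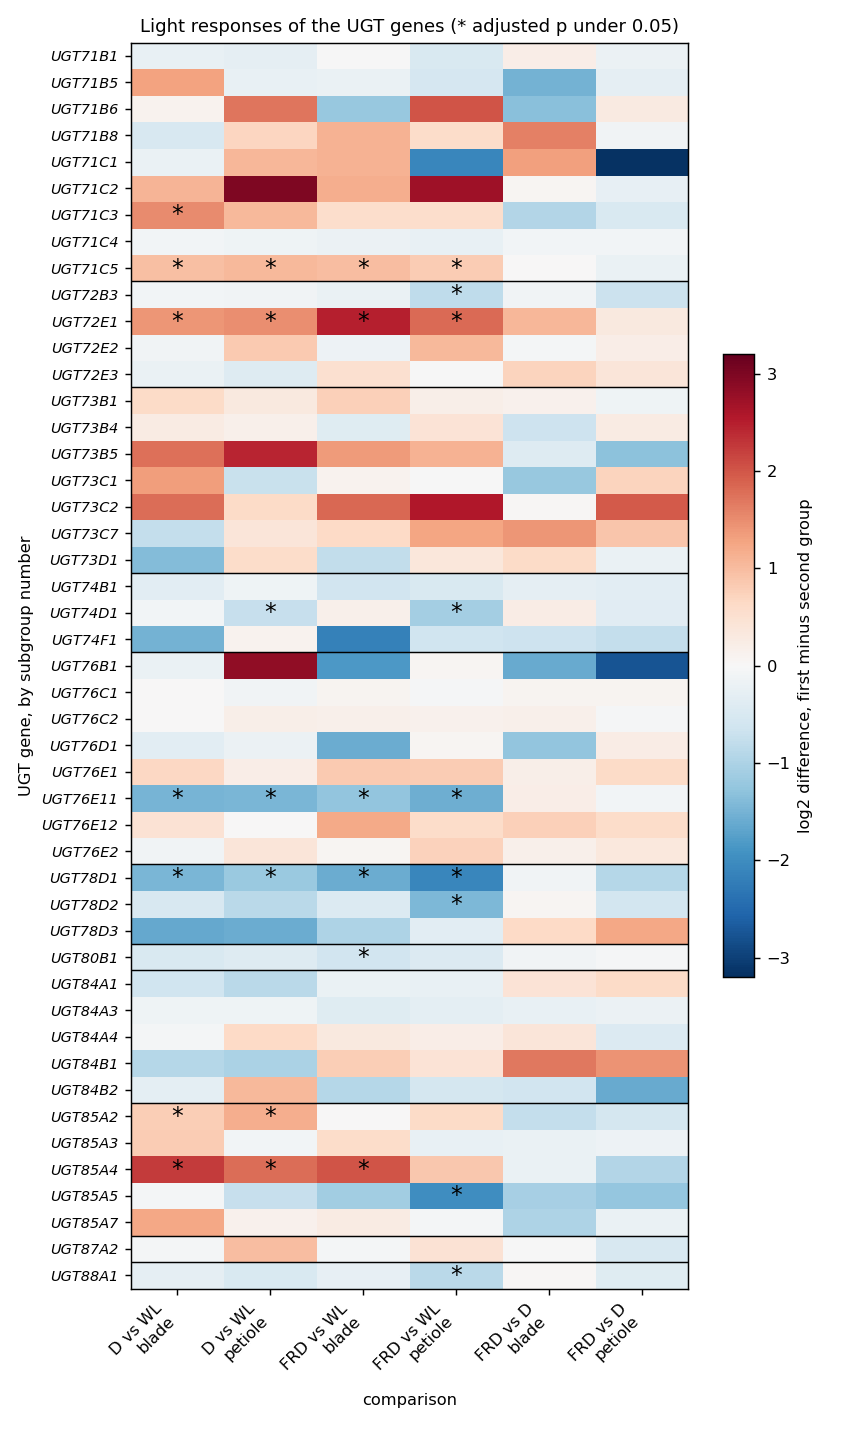
Log2 difference of each of the 47 UGT genes (rows, grouped by subgroup) in the 6 light comparisons (columns); the colour scale gives the log2 difference and the marked cells are those called at an adjusted p below 0.05. Marked cells lie in the 4 comparisons with white light, and no cell is marked for FRD against D.

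The 3 UGT78 enzymes add sugars to flavonoids; UGT78D1 was called lower than white light in both tissues and both dark treatments, UGT78D2 in pulsed petioles, and UGT78D3 in none. UGT78D1 is the flavonol 3-O-rhamnosyltransferase. Its blade ratios were 1, 1 and 0.73 in WL, 0.373, 0.239 and 0.386 in D, and 0.244, 0.348 and 0.316 in FRD. Petiole ratios were 1.06, 1 and 0.953 in WL, 0.477, 0.627 and 0.284 in D, and 0.362, 0.216 and 0.165 in FRD. All 6 arrays without light were below all 3 white-light arrays in each tissue. UGT78D1 fell by 1.47 ± 0.32 in dark blades (adjusted p = 0.00914) and by 1.19 ± 0.32 in dark petioles (adjusted p = 0.0444). After the pulse it fell by 1.59 ± 0.32 in blades (adjusted p = 0.00561) and by 2.1 ± 0.32 in petioles (adjusted p = 0.00131), a 4.27-fold drop. A floor at the 10th percentile was set on the ratios to white light, so it caps large falls whatever the signal. It cannot show whether a fall rests on dim values. With values floored in this way the 4 falls of UGT78D1 were still called, at differences between -0.86 and -0.71. The dark petiole call was lost when any 1 of 5 arrays was left out, all but the second D replicate, with an adjusted p up to 0.183.

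UGT78D2, the flavonoid 3-O-glucosyltransferase that acts on flavonols and anthocyanidins, was called in pulsed petioles. There the ratios were 0.49, 0.365 and 0.305, against 0.938, 1.19 and 1 in petiole WL and 0.723, 0.655 and 0.389 in petiole D. Pulsed petioles lay below white-light petioles without overlap, and they overlapped the range of dark petioles. The fall from white light was by 1.45 ± 0.25 (adjusted p = 0.0027), or by 0.91, still called, with values floored at the 10th percentile. Blade ratios of UGT78D2 were 1.1, 1 and 0.94 in WL, 0.88, 0.58 and 0.696 in D, and 0.807, 0.847 and 0.598 in FRD. Both dark groups were again below WL, but neither difference passed the test (-0.51 ± 0.25, adjusted p = 0.225, and -0.45 ± 0.25, adjusted p = 0.305). UGT78D3, the flavonol arabinosyltransferase, had the lowest difference of the family in dark blades and in dark petioles, at -1.63 ± 1.1 and -1.59 ± 1.1. Its replicates spread too widely for a call (dark blades at 1.74, 0.205 and 0.157; adjusted p = 0.422 and 0.508). All 3 UGT78 genes thus had negative differences from white light in the 4 comparisons, with medians of -1.47 and -1.19 for D and -0.99 and -1.45 for FRD in blades and petioles. With values floored at the 10th percentile these medians were -0.55, -0.70, -0.71 and -0.86, and 1 of the 3, UGT78D3, was no longer negative in pulsed petioles. The trichome marker TRY also lay below white light without overlap in all 4 groups, with differences of -0.57 and -1.12 in dark and pulsed blades and -1.76 and -1.56 in dark and pulsed petioles (adjusted p from 0.178 to 0.704), and its part in these results was not tested.

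UGT76E11 acts on flavonoids. It stood at 1, 0.999 and 1.12 in WL blades, at 0.435, 0.347 and 0.34 in D blades and at 0.464, 0.361 and 0.474 in FRD blades. In petioles the ratios were 1, 1.27 and 0.616 in WL, 0.386, 0.419 and 0.229 in D, and 0.367, 0.333 and 0.253 in FRD. No array without light reached the lowest white-light array of its tissue. The falls were by 1.48 ± 0.27 in dark blades (adjusted p = 0.00331), 1.47 ± 0.27 in dark petioles (adjusted p = 0.00726), 1.27 ± 0.27 in pulsed blades (adjusted p = 0.00793) and 1.56 ± 0.27 in pulsed petioles (adjusted p = 0.00303). They held when any single array was left out. With values floored at the 10th percentile they were called at -0.91 in blades and -0.74 in petioles. The related UGT76E12 had a residual SD near the top of the family and gave no call.

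UGT88A1, which glucosylates flavonoids in vitro, was at 1, 1.02 and 0.972 in WL petioles, 0.752, 0.876 and 0.549 in D petioles and 0.682, 0.549 and 0.437 in FRD petioles. Both groups kept from light lay below WL without overlap. The pulsed group passed the test, with a fall by 0.87 ± 0.18 (adjusted p = 0.00862), and the dark group did not (-0.48 ± 0.18, adjusted p = 0.146). In blades the WL arrays stood at 1.07, 1 and 0.844, the D arrays at 0.821, 0.827 and 0.723 and the FRD arrays at 0.795, 0.858 and 0.779, and neither difference was called.

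Of the 4 UGT72 genes, UGT72E1 rose and UGT72B3 fell. UGT72E1 glucosylates coniferyl aldehyde, an intermediate on the way to lignin. Its blade ratios were 1.06, 1 and 0.797 in WL, 1.33, 2.4 and 5.07 in D, and 5.19, 4 and 7.26 in FRD. In petioles it stood at 0.971, 1 and 1.01 in WL, 1.99, 2.66 and 4.08 in D, and 3.31, 2.68 and 4.72 in FRD. All arrays without light were above all white-light arrays of their tissue, and D blades were the most scattered of the 6 groups. The rise was 1.42 ± 0.41 in dark blades (adjusted p = 0.0387) and 2.49 ± 0.41 in pulsed blades (adjusted p = 0.00156), or 5.62-fold. In petioles it was 1.49 ± 0.41 in the dark (adjusted p = 0.0487) and 1.81 ± 0.41 after the pulse (adjusted p = 0.0136). Only the pulsed blade call held without every single array; the dark petiole call was lost without any 1 of the 6 (adjusted p up to 0.192), the dark blade call without any but the first D replicate (up to 0.134), and the pulsed petiole call without the third FRD replicate (0.0595).

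UGT72E2 and UGT72E3, which glucosylate coniferyl and sinapyl alcohol, did not follow UGT72E1. UGT72E2 was at -0.10 ± 0.36 in dark blades and 0.83 ± 0.36 in dark petioles, and UGT72E3 at -0.21 ± 0.44 and -0.40 ± 0.44, with no call. UGT72B3 had petiole ratios of 1.02, 0.855 and 1 in WL, 0.725, 1.1 and 0.847 in D, and 0.646, 0.459 and 0.538 in FRD. Its blade ratios were 1.62, 1 and 0.946 in WL, 0.83, 1.19 and 1.28 in D, and 0.927, 1.01 and 1.07 in FRD. Only pulsed petioles were apart, below both other petiole groups. The fall from white light there was by 0.82 ± 0.23 (adjusted p = 0.0441), a call that was lost without any 1 of 5 arrays, all but the first FRD replicate (adjusted p up to 0.151), and with the floor at the 10th percentile (0.0571).

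In UGT71 the calls went up and came from the UGT71C genes. UGT71C5 glucosylates abscisic acid, the drought hormone. It stood at 0.992, 1.06 and 1 in WL blades, 1.3, 2.37 and 2.56 in D blades, and 1.63, 2.16 and 2.32 in FRD blades. Petiole ratios were 0.981, 1.08 and 1 in WL, 1.84, 2.3 and 2.18 in D, and 1.74, 1.72 and 1.94 in FRD. White-light arrays were lower than every other array in each tissue. The rise was 0.97 ± 0.21 in dark blades (adjusted p = 0.00997), 1.04 ± 0.21 in dark petioles (adjusted p = 0.0126), 0.99 ± 0.21 in pulsed blades (adjusted p = 0.00863) and 0.82 ± 0.21 in pulsed petioles (adjusted p = 0.0308). Both petiole calls were close to the threshold: the first was lost without the second or the third D replicate (adjusted p up to 0.0515), the second without any 1 of the 6 arrays (up to 0.0955).

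UGT71C3 had blade ratios of 0.404, 1.11 and 1 in WL, 1.3, 3.56 and 2.23 in D, and 1.09, 0.936 and 1.43 in FRD. Its petiole ratios were 0.58, 1.06 and 1 in WL, 1.94, 1.8 and 1.56 in D, and 1.69, 1.12 and 1.05 in FRD. Dark arrays were above white-light arrays in both tissues, while pulsed arrays overlapped white light in both. The rise in dark blades, 1.51 ± 0.41, passed the test (adjusted p = 0.0313), but not without the first WL, the second D or the third D replicate (adjusted p up to 0.129). In dark petioles the difference was 1.05 ± 0.41 (adjusted p = 0.175).

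UGT71C2 had the largest petiole difference in the dark, 2.98 ± 0.90, with D arrays at 2.4, 12.1 and 10 against 0.286, 2.07 and 1 in WL. After the pulse its petiole arrays stood at 4.85, 4.99 and 6.78, a difference of 2.71 ± 0.90. Neither set overlapped white light, and neither passed the test (adjusted p = 0.0727 and 0.0855). UGT71B6, which also glucosylates abscisic acid, had a residual SD of 1.45 and no call. In pulsed petioles UGT71C1 was at -2.09 ± 0.99 (adjusted p = 0.253). UGT71C4 was steady, at -0.09 ± 0.15 in dark blades and -0.15 ± 0.15 in dark petioles.

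Of the 5 UGT85 genes, UGT85A4 and UGT85A2 rose and UGT85A5 fell. UGT85A4 had blade ratios of 0.741, 1.02 and 1 in WL, 3.31, 3.78 and 6.3 in D, and 4.5, 2.58 and 4.3 in FRD. Petiole arrays were at 1, 0.77 and 1 in WL, 2.8, 3.32 and 3.51 in D, and 1.81, 1.55 and 1.69 in FRD. In blades both groups without light overlapped each other well above WL, whereas in petioles the pulsed arrays lay between WL and D without touching either. UGT85A4 rose 4.71-fold in dark blades (log2 2.24 ± 0.25, adjusted p = 0.00017), 4.04-fold in pulsed blades (2.01 ± 0.25, adjusted p = 0.000316) and 3.48-fold in dark petioles (1.80 ± 0.25, adjusted p = 0.00144). The pulsed petiole difference, 0.87 ± 0.25, narrowly missed the threshold (adjusted p = 0.0504).

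UGT85A2 rose in darkness without the pulse. Its blade ratios were 0.989, 1 and 1.18 in WL, 1.54, 1.59 and 2.43 in D, and 0.864, 1.09 and 1.3 in FRD. Petiole ratios were 1, 1.03 and 0.751 in WL, 1.67, 1.99 and 2.64 in D, and 1.44, 1.22 and 1.59 in FRD. Dark arrays were the highest in both tissues, pulsed blades overlapped white light, and pulsed petioles lay between the other groups. The rise in the dark was 0.78 ± 0.22 in blades (adjusted p = 0.0385) and 1.17 ± 0.22 in petioles (adjusted p = 0.0089). The blade call was lost without any 1 of 5 arrays, all but the first D replicate (adjusted p up to 0.143).

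UGT85A5 went the other way in petioles, where it stood at 1, 1.41 and 0.548 in WL, 0.447, 0.631 and 0.579 in D, and 0.273, 0.371 and 0.121 in FRD. In blades it was at 1, 0.893 and 1.34 in WL, 0.997, 1.38 and 0.76 in D, and 0.463, 0.473 and 0.537 in FRD. Pulsed arrays were the lowest in both tissues, without overlap. The fall from white light was by 1.99 ± 0.40 in pulsed petioles (adjusted p = 0.00689). With ratios floored at the 10th percentile, which caps falls, the pulsed petiole difference was -0.74 and not called (adjusted p = 0.13). The pulsed blade difference did not pass the test (-1.11 ± 0.40, adjusted p = 0.0933). UGT85A3 and UGT85A7 were called in no comparison.

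The UGT74 and UGT84 genes join hormones and phenolic acids to glucose. UGT74D1 conjugates auxin and its oxidised form. It stood at 1, 1.21 and 0.982 in WL petioles, 0.63, 0.85 and 0.479 in D petioles and 0.517, 0.548 and 0.427 in FRD petioles. In blades the ratios were 1.17, 0.995 and 1 in WL, 0.911, 1.05 and 1.02 in D, and 1.24, 1.1 and 1.17 in FRD. Petiole arrays without light were all below white light, while in blades the groups overlapped with it. UGT74D1 fell by 0.74 ± 0.18 in dark petioles (adjusted p = 0.0293) and by 1.1 ± 0.18 in pulsed petioles (adjusted p = 0.00209). Its blade differences were -0.09 ± 0.18 and 0.15 ± 0.18. The dark petiole call was lost without any 1 of 5 arrays, all but the second D replicate (adjusted p up to 0.119).

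UGT74F1, a salicylic acid glucosyltransferase, had the lowest pulsed blade difference of the family, -2.16 ± 0.69, but did not pass the test (adjusted p = 0.0612). Its FRD blade arrays were at 0.193, 0.349 and 0.144 and its WL blade arrays at 1, 1.4 and 0.623, without overlap. In dark blades the difference was -1.51 ± 0.69 (adjusted p = 0.2), and in dark petioles 0.11 ± 0.69, a sign that turned with quantile normalization and with aligned 75th percentiles. UGT74B1, which adds the sugar in the making of the glucosinolate core, was at -0.33 ± 0.22 in dark blades and -0.13 ± 0.22 in dark petioles. All 5 UGT84 genes, among them UGT84A1, UGT84A3 and UGT84A4 that make glucose esters of hydroxycinnamic acids, had a negative difference in dark blades (median -0.31). In dark petioles 3 of the 5 were negative, and no UGT84 gene was called in any comparison.

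The cytokinin N-glucosyltransferase genes UGT76C1 and UGT76C2 had no call. UGT76C1 lay within -0.12 and 0.08 in all 6 light comparisons (SE 0.10), and UGT76C2 within -0.04 and 0.19 (SE 0.27). UGT76B1, which glucosylates isoleucic acid, salicylic acid and N-hydroxypipecolic acid, was far more variable. Dark petioles had ratios of 17.4, 8.13 and 4.79, against 1, 2.7 and 0.691 in WL and 0.906, 0.778 and 3.08 in FRD. Dark petioles were above both other groups without overlap, but the difference of 2.84 ± 0.85 from white light was not called (adjusted p = 0.0731). In pulsed blades it was at -1.84 ± 0.85 (adjusted p = 0.208).

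UGT80B1, a sterol glucosyltransferase also known as TRANSPARENT TESTA 15, fell in pulsed blades. The arrays stood at 0.941, 1 and 1.33 in WL blades, 0.786, 0.905 and 0.63 in D blades and 0.723, 0.733 and 0.654 in FRD blades. In petioles they were at 0.929, 1 and 1.01 in WL, 0.711, 0.725 and 0.776 in D, and 0.612, 0.86 and 0.709 in FRD. Every array without light was below the white-light arrays of its tissue. The pulsed blade fall was by 0.62 ± 0.16 (adjusted p = 0.0272), and it was lost without the third WL replicate or any FRD replicate (adjusted p up to 0.101). The other 3 differences from white light ran from -0.49 to -0.41 and were not called. UGT87A2, which affects flowering time, was at 0.99 ± 0.29 in dark petioles (adjusted p = 0.0689) and at -0.05 ± 0.29 in dark blades.

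None of the 7 UGT73 genes, a subgroup with enzymes for stress metabolites and foreign compounds, was called. Of their differences, 5 of 7 were above 0 in dark blades, 6 of 7 in dark petioles, 5 of 7 in pulsed blades and 6 of 7 in pulsed petioles. With the 75th percentiles aligned, 4 of 7 were positive in both blade comparisons and 5 of 7 in both petiole comparisons. UGT73C2 reached 2.56 ± 0.90 in pulsed petioles, where its arrays stood at 4.78, 5.63 and 6.29 against 1, 0.637 and 1.28 in WL (adjusted p = 0.107). In dark blades it was at 1.79 ± 0.90 (adjusted p = 0.251). UGT73C1, a zeatin O-glucosyltransferase, lay between -1.21 ± 0.62 (FRD against D) and 1.33 ± 0.62 (D against WL) in blades. Both values rest mostly on the second D replicate, with blade D ratios of 1.171, 10.15 and 1.361. The blade ratios were 1.116, 0.905 and 1 in WL and 0.96, 1.662 and 0.817 in FRD.

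**Figure D3:**
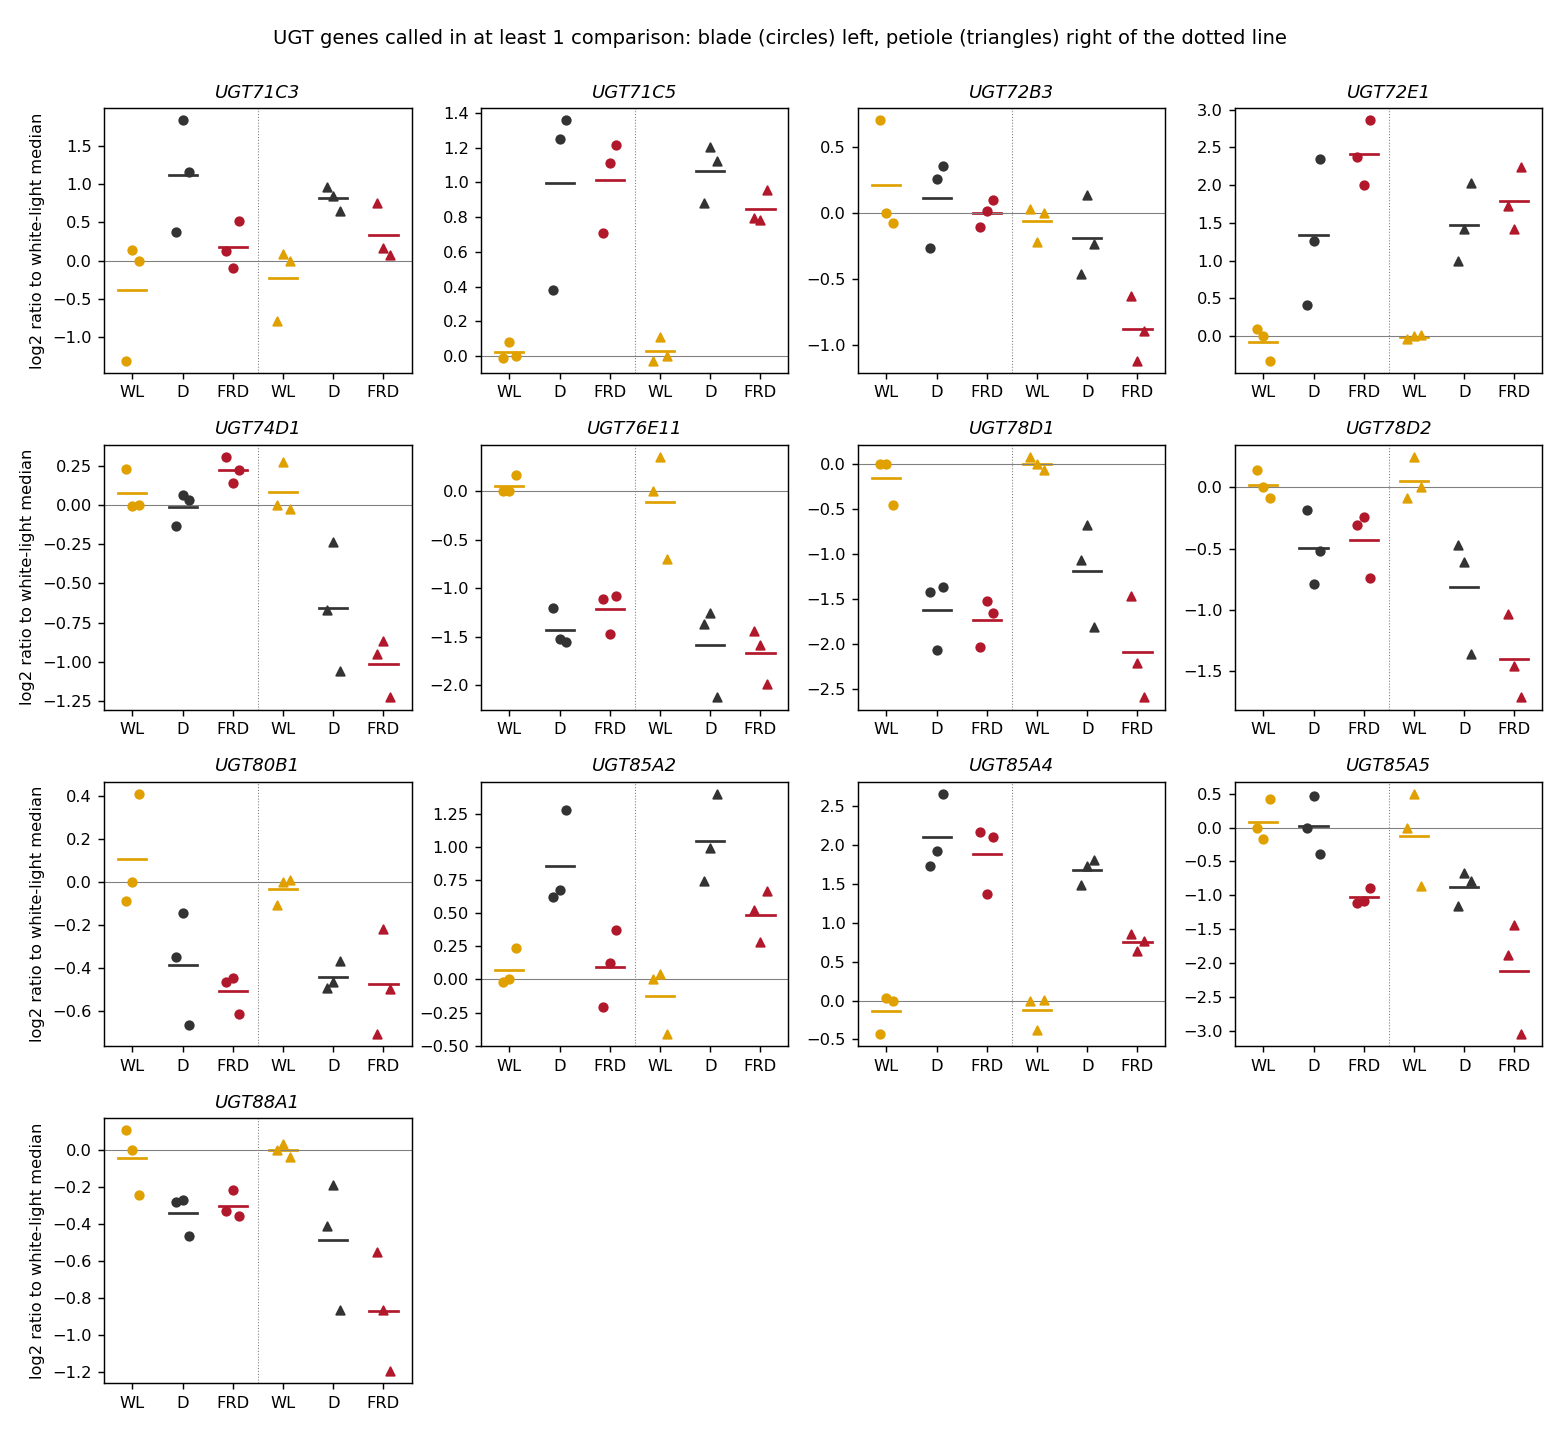
Log2 ratio to the white-light median of the tissue in each of the 18 arrays for the 13 UGT genes called in at least 1 light comparison; circles are blade arrays, triangles petiole arrays and short lines group means. UGT85A4, UGT72E1 and UGT71C5 stand above white light in both tissues, and UGT78D1 and UGT76E11 stand below it.

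The pulse itself, FRD against D, changed no UGT gene at the threshold in either tissue with limma, where 0.651% of all probe sets were called in blades and 1.09% in petioles. An unadjusted p below 0.05 was reached by 5 of the 47 UGT genes in blades and 9 in petioles. Over all 22746 probe sets 1723 and 1858 reached it. The median difference was 0.02 in blades and -0.19 in petioles, against -0.02 in each over all probe sets. Replicates did not overlap for 9 UGT genes in blades (19.1%, against 10.9% of all probe sets) and for 10 in petioles (21.3%, against 13.9%).

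The 5 UGT85 genes all had a negative difference between FRD and D in both tissues, with medians of -0.76 in blades and -0.55 in petioles. Over all probe sets 46.5% of the differences were positive in blades and 47.3% in petioles. Each of the 5 genes stayed negative with quantile normalization, the floor and aligned 75th percentiles. The last of these moved the medians only a little, to -0.74 and -0.59. UGT85A5 was at -1.05 ± 0.40 in blades and -1.25 ± 0.40 in petioles (adjusted p = 0.487 and 0.266). UGT85A2 was at -0.76 ± 0.22 and -0.55 ± 0.22 (adjusted p = 0.243, the lowest of the family in blades, and 0.492). UGT85A4 was at -0.22 ± 0.25 in blades and -0.93 ± 0.25 in petioles (adjusted p = 0.974 and 0.151, the latter the lowest of the family in petioles). Pulsed arrays were below dark arrays without overlap for UGT85A2 and UGT85A5 in both tissues and for UGT85A4 in petioles. The 95% intervals reached from -1.90 to -0.20 for UGT85A5 in blades and from -1.47 to -0.38 for UGT85A4 in petioles. UGT85A3 and UGT85A7 were at -0.22 ± 0.28 and -0.98 ± 0.68 in blades, and at -0.16 ± 0.28 and -0.22 ± 0.68 in petioles.

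The extremes of the pulse comparison lay in noisy genes. In petioles the lowest differences were -3.15 ± 0.99 for UGT71C1 (adjusted p = 0.256) and -2.76 ± 0.85 for UGT76B1 (adjusted p = 0.242), and the highest were 1.95 ± 0.90 for UGT73C2 and 1.43 ± 1.2 for UGT84B1, an enzyme that makes the glucose ester of auxin. UGT71C1 arrays stood at 0.352, 0.299 and 0.641 in FRD petioles and at 3.38, 1.55 and 9.04 in D petioles, without overlap. In blades the lowest were UGT76B1 at -1.62 ± 0.85 and UGT71B5 at -1.51 ± 0.86. The highest there were UGT84B1 at 1.70 ± 1.2 and UGT71B8 at 1.62 ± 0.89 (adjusted p from 0.751 to 0.891 for these 4). In the petioles 8 of the 9 UGT71 genes were negative (median -0.22), next to 31 of all 47 UGT genes (median -0.19). Over all probe sets 47.3% were positive.

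Blades and petioles come from different arrays, so their responses can be set side by side. In darkness 32 of the 47 UGT genes (68.1%) had the same sign in both tissues, as did 67.8% of all probe sets. After the pulse, against white light, 33 did (70.2%, against 67.4%), and for FRD against D 29 did (61.7%, against 55%). The correlation across the 47 genes was r = 0.52 (rho = 0.51) for D against WL and 0.33 (rho = 0.37) over all probe sets, a description only, since the genes share their arrays and are not replicates. Of the dark calls, 6 genes were called in both tissues, 85.7% of those called in each, all with the same sign (UGT71C5, UGT72E1, UGT76E11, UGT78D1, UGT85A2 and UGT85A4). Over all probe sets the calls shared made up 34.3% of the blade calls and 68.4% of the petiole calls. For FRD against WL, 4 were called in both, 66.7% of the blade calls and 44.4% of the petiole calls (44.6% and 59.8% over all probe sets).

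No UGT gene differed between petioles and blades at the threshold in the limma test of the difference itself. That test called 0%, 0.0044% and 0.0352% of all probe sets for the pulse, for darkness and for both together, in that order. An unadjusted p below 0.05 was found for 4, 6 and 6 of the 47 UGT genes, and for 1197, 1506 and 1681 of all 22746 probe sets. The lowest p among the UGT genes was that of UGT74D1 after the pulse, with -1.25 ± 0.25 for petioles minus blades (unadjusted p = 0.000251, adjusted p = 0.134, 95% interval -1.79 to -0.70). In the same contrast UGT85A4 was at -1.14 ± 0.36 (adjusted p = 0.432), UGT78D2 at -1 ± 0.35 (adjusted p = 0.496) and UGT88A1 at -0.61 ± 0.25 (adjusted p = 0.616). The genes called in 1 tissue alone are therefore not shown to respond differently in the other.

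**Figure D4:**
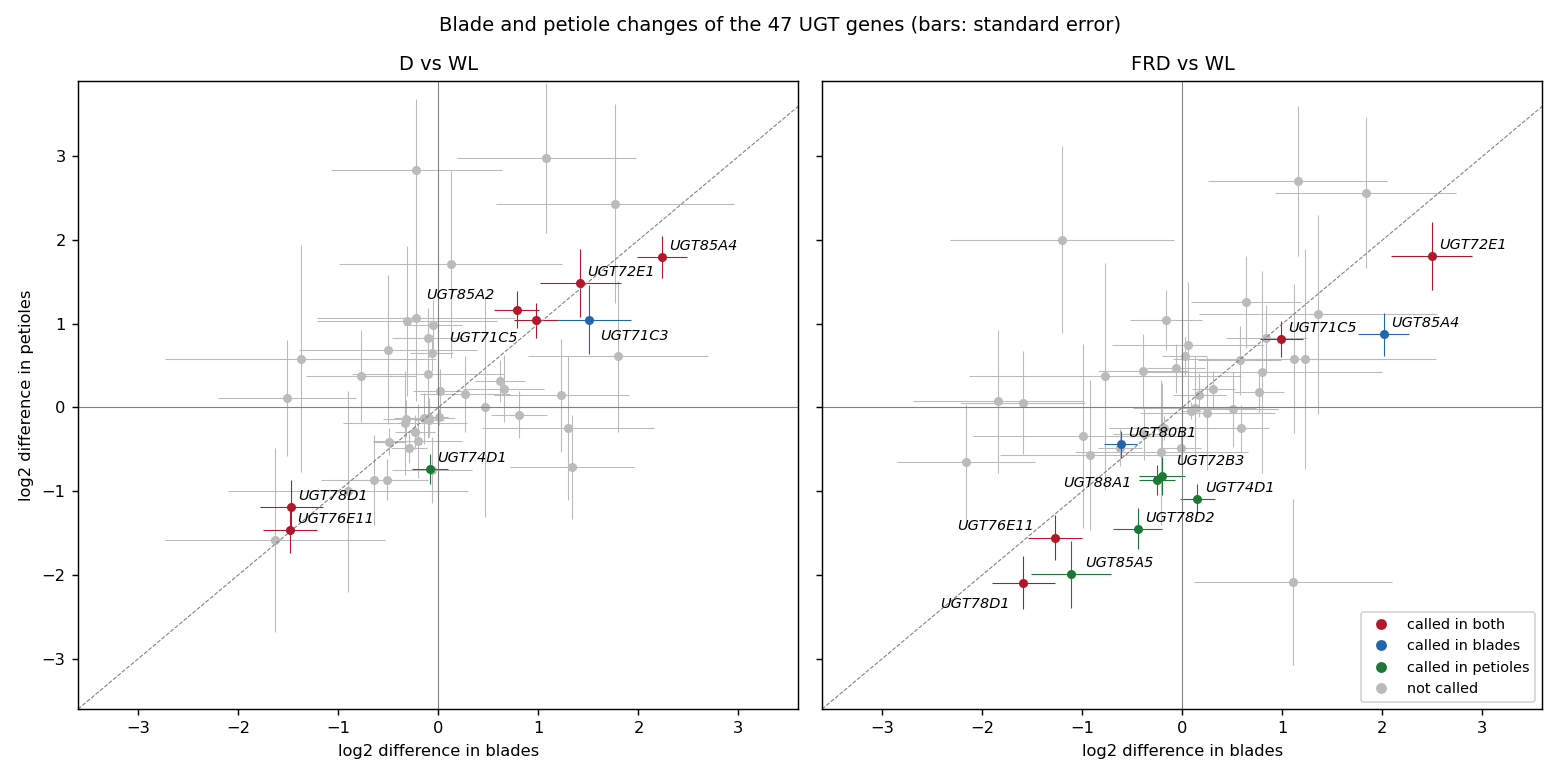
Log2 difference in blades (horizontal) against petioles (vertical) for the 47 UGT genes, D against WL on the left and FRD against WL on the right; bars are standard errors, colours mark where a gene was called, and the dashed line marks equal differences. In the dark the 6 genes called in both tissues lie close to the line, and after the pulse UGT74D1, UGT78D2 and UGT88A1 lie below it.

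Many UGT genes sit beside each other on the chromosomes, and neighbours did not always share 1 response to darkness. By the order of protein-coding genes in RefSeq, 24 of the 47 lie in 10 runs of adjacent UGT genes, the longest with 4. In the run of UGT71C5, UGT71C4 and UGT71C3 on chromosome 1, the outer genes rose in dark blades while UGT71C4 between them was at -0.09 ± 0.15. In the run of UGT85A7, UGT85A2, UGT85A5 and UGT85A3, also on chromosome 1, UGT85A2 rose in dark petioles (1.17 ± 0.22) while its neighbour UGT85A5 was at -0.75 ± 0.40. For FRD against D all 4 genes of this run were negative, from -1.05 to -0.22 in blades and from -1.25 to -0.16 in petioles, with no call. UGT76C2 and UGT76C1 were both close to 0. The probe sets of the members are annotated to 1 gene each, but hybridisation between close copies was not tested.

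**Figure D5:**
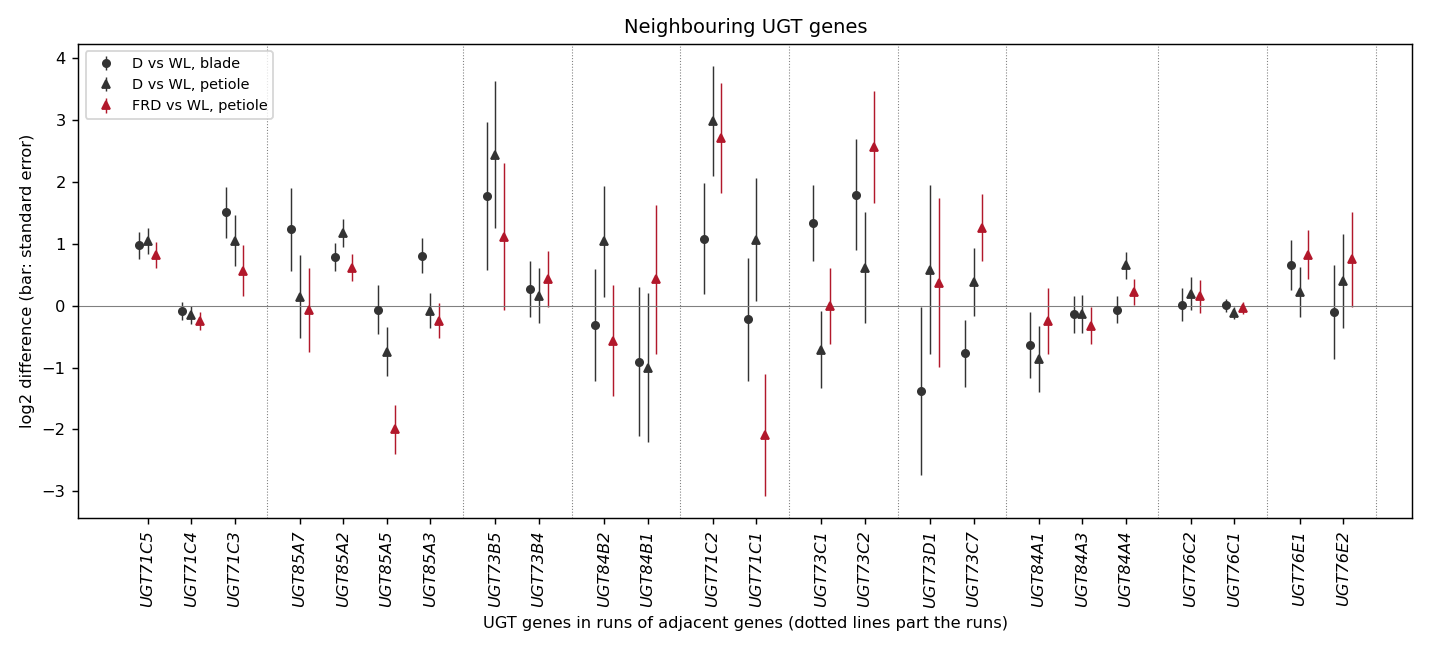
Log2 differences (bars: standard error) of the 24 UGT genes that lie next to another UGT gene, in chromosomal order within each of the 10 runs, for D against WL in blades and petioles and FRD against WL in petioles. UGT71C4 stays near 0 between UGT71C5 and UGT71C3, and UGT85A5 lies below UGT85A2.

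Of 5 family enzymes annotated under other symbols, GT72B1 and IAGLU had calls, all of them falls. SGT, UF3GT and AT5G54010 were not called. Against white light they lay at 0.15 to 0.33, -2.17 to -0.53 and -1.03 to 0.93. Over all probe sets 4.47 and 2.15% were called lower in dark blades and petioles, and 4.74 and 3.87% in pulsed ones. GT72B1, the UGT72B1 enzyme that conjugates chlorinated phenols, fell by 1.21 ± 0.32 in dark blades (adjusted p = 0.0262), by 2.01 ± 0.32 in pulsed blades (adjusted p = 0.00133) and by 1.84 ± 0.32 in pulsed petioles (adjusted p = 0.00298). IAGLU, an auxin glucosyltransferase, was called lower in dark blades and dark petioles. After the pulse it was at -0.02 ± 0.38 in blades and -0.31 ± 0.38 in petioles against white light, not called. For FRD against D it was at 1.35 ± 0.38 in blades and 1.65 ± 0.38 in petioles. Neither passed the limma test (adjusted p = 0.197 and 0.0586). Around the UGT78 enzymes the pathway was thinly covered, with 4 genes matched from a list of 55 phenylpropanoid and flavonoid symbols. CHIL, a chalcone isomerase-like protein of flavonoid synthesis, fell by 1.60 ± 0.37 in dark blades (adjusted p = 0.0141) and by 1.39 ± 0.37 in pulsed blades (adjusted p = 0.0279), and HCT, of monolignol synthesis, fell by 0.43 ± 0.10 in pulsed petioles (adjusted p = 0.0194). Of 4 glucosinolate genes, AOP1, a dioxygenase-like gene of the AOP cluster, fell in all 4 comparisons with white light, by 2.16, 2.15, 2.21 and 1.75 (dark blades, pulsed blades, dark petioles, pulsed petioles; adjusted p up to 0.00178), next to no call for UGT74B1. Among 2 salicylic acid genes SAG101 rose in dark blades (0.89 ± 0.24, adjusted p = 0.0316), and among 2 cytokinin response genes ARR15 fell in pulsed blades (by 1.58 ± 0.47, adjusted p = 0.044). The single matched UDP-sugar gene (USP) and the single matched abscisic acid gene (BGLU33) were not called. The list of 22 brassinosteroid symbols matched no gene outside the UGT members, and other genes of that pathway were not looked for.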

How the data were processed

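The authors deposited 1 table of linear ratios from 18 single-colour Affymetrix arrays, 3 per group. In each tissue the white-light median was exactly 1 in all 22810 probe sets, so the deposited ratios were taken as relative to that median; this reading comes from the values. Summarisation and background correction are not given in the sources used here, signal over background is unknown, and the number of arrays limits precision. The ratios, as deposited, were turned to log2 with no pseudocount and fitted in R 4.3.3 (limma 3.58.1) as 1 mean for each group, with no replicate block and no low-value filter, after 64 control probe sets were left out; this gave 12 residual and 1.459 prior degrees of freedom. Of 3 missing values none lay in a UGT gene. P-values were adjusted within each of 9 comparisons over 22746 probe sets. The fit was tested on simulated data.

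The members and lists were chosen with earlier results of these data known. Genes named are every UGT gene called, the 2 largest rises and falls in each light comparison, members needed for a subgroup count, and list members called; UGT71C4, UGT73D1 and the neighbours were added to describe spread and runs. Symbols CHI and FDH belonged to other genes and were dropped. No sequence was used, so promoter motifs were not searched. Alternatives were quantile normalization, aligned 75th percentiles, a floor at the 10th percentile of the ratios, the compared arrays alone, a replicate block and leaving out each array.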

Additional observations from a re-analysis of the deposited data

Results flagged for a closer look

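The 25S rRNA control, which no comparison used, was 1.05 higher on the log2 scale in dark than in white-light blades. The probe set shared by UGT73B2 and UGT73B3, left out because it names 2 genes, rose by 1.20 ± 0.34 in pulsed blades against white light (adjusted p = 0.0374 in the limma fit) and by 1.5 ± 0.34 in pulsed petioles (adjusted p = 0.0142), while none of the 7 single-gene UGT73 probe sets was called. The probe sets that UGT89B1 and UGT71D1 each share with another gene were not called in any comparison.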

How the results depend on the processing

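The replicate block and the compared arrays alone leave the differences unchanged in this balanced design, so they could not turn a sign. None of the 29 calls changed sign under the other alternatives. Of these, 18 held without each array in turn; 24 were lost with quantile normalization, 16 with the compared arrays alone, 6 with aligned 75th percentiles, 2 with the floor and 1 with the replicate block. UGT72E1 in pulsed blades, UGT78D1 and UGT78D2 in pulsed petioles, and UGT85A4 in dark and pulsed blades passed every setting. Aligning the 75th percentiles moved the median of all probe sets to -0.35 and -0.33 in dark and pulsed blades, and to -0.29 and -0.31 in petioles. It gave 8 calls in dark blades, 10 in dark petioles, 13 in pulsed blades and 13 in pulsed petioles, against 7, 7, 6 and 9. Over all probe sets it called 22.1, 12.8, 20.4 and 19.3%, against 11.2, 5.6, 11.2 and 8.31%. Quantile normalization gave 1, 0, 2 and 2 in the same order, and the compared arrays alone gave 2, 2, 4 and 6. Calls became fewer across the whole array too. Over all probe sets quantile normalization called 0.703, 0.369, 0.822 and 0.805%, and the compared arrays alone 1.97, 1.13, 2.77 and 2.59%. The fit with the replicate block called 8, 11, 7 and 10, and UGT72B3 was not called in pulsed petioles (adjusted p = 0.0548). Over all probe sets this fit called 14.8, 8.96, 14.9 and 11.5%, more than the main fit in each comparison. Same-numbered arrays deviated together with a median correlation of 0.04 over 45 pairs, against -0.02 over 90 pairs of different number; 7 of the former and 0 of the latter were above 0.1, and all 7 were pairs of arrays numbered 3. Since not every pair passed 0.1, the numbers were not taken as pairing the samples. A rule that asks this of all 45 pairs is strict and cannot decide whether same-numbered arrays share a batch. Of the 18 arrays, 15 correlated best on average with arrays of their own number, a hint from the data and not from the design. The dark petiole count under quantile normalization was 0 by limma, against 7 as reported. Without 1 array the counts ran from 4 to 7 in dark blades, 3 to 5 in dark petioles, 5 to 7 in pulsed blades and 6 to 8 in pulsed petioles. For FRD against D in blades they ran from 0 to 1: UGT76D1 was called without the third FRD replicate (-2.23, adjusted p = 0.016), whose ratio was 0.988 beside 0.128 and 0.135. The counts for FRD against D in petioles and for petioles minus blades stayed at 0. Averaging probe sets was not run, since each gene has 1. The cause of these shifts was not tested. Signal over background is unknown, so dim genes could not be set apart.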
